A study of Mus musculus with 6 samples.

Results

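Ly6a, Ly6c1, Ly6c2 and Ly6e are 4 genes of the Ly6 family, chosen by symbol among the 13564 genes of the authors' normalized table, and all 4 were found there and were tested. Their transcripts were measured by RNA sequencing in the progeny of naive CD4 T cells (CD4N cells) from Foxo1TKO mice (n = 3 libraries) and Foxo1Ctrl mice (n = 3 libraries). Foxo1TKO mice carry floxed Foxo1 alleles and a Cre driven by the CD4 promoter, so that CD4 and CD8 T cells alike lose the gene as CD4+CD8+ thymocytes. Foxo1Ctrl mice are littermates with floxed alleles and no Cre, and both were on a C57BL/6 background with a Foxp3-GFP reporter and 3 months old unless otherwise stated. CD4N cells sorted from lymph nodes were activated for 4 days with the anti-CD3 antibody 145-2C11 at 0.1 µg/ml in the presence of 250000 splenocytes from CD3εKO mice, which lack T cells. The labels give 50000 CD4N cells per culture, whereas the methods describe a larger number with the same number of splenocytes, so that the ratio of T cells to splenocytes is uncertain. Neither the labels nor the methods describe a separation of the T cells from these splenocytes before RNA extraction, and the labels do not say whether replicates came from separate mice, so that p-values measure the spread between these libraries.

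Ly6 proteins are small, cysteine-rich proteins that are held in the outer leaflet of the cell membrane by a glycosylphosphatidylinositol (GPI) anchor. Ly6a encodes Sca-1, a marker of mouse hematopoietic stem cells that interferons and activation induce on T cells. Ly6c1 and Ly6c2 are near-identical genes that encode Ly6C, which is found on monocytes, plasma cells and subsets of naive and memory T cells. Ly6e encodes TSA-1, also known as Sca-2, which is high on immature thymocytes and is induced by interferons. The comparison of the genotypes asks how the level of these transcripts depended on Foxo1 in CD4N cells after activation.

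The 4 genes lie within 156.9 kb of chromosome 15 (GRCm38, GENCODE M21). In order of position they are Ly6e (ENSMUSG00000022587, 74955051 to 74959905, plus strand), Ly6a (ENSMUSG00000075602, 74994877 to 74998031, minus strand), Ly6c1 (ENSMUSG00000079018, 75044018 to 75048830, minus strand) and Ly6c2 (ENSMUSG00000022584, 75108158 to 75111970, minus strand). No exon of another annotated gene overlapped an exon of any of them. The coding sequences of Ly6c1 and Ly6c2, each of 393 bases, differed at 9 bases (97.7% identity, with gaps counted as differences), and Ly6a was 81.8% identical to Ly6c1 and 51.9% identical to Ly6e. The 60 coding bases, from base 6 to base 65 of each coding sequence, that hold 6 of the 9 differences are given below because reads that cross them tell Ly6c1 from Ly6c2, with the differing bases in capitals (GENCODE M21 transcripts).
Ly6c1: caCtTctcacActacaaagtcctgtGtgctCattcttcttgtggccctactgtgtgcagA
Ly6c2: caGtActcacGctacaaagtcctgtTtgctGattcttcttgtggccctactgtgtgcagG

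Over stretches of 75 bases, 19.0% of those in the coding transcripts of Ly6c1 and 20.7% of those of Ly6c2 also occurred in a transcript of another gene. For Ly6c2 this gene was Ly6c1, and for Ly6c1 these were Ly6c2 and Ly6a. The share was 6.33% for Ly6a, with Ly6c1 and Ly6i, and 0% for Ly6e. Reads from shared stretches were divided between genes by the authors' counting, so that the split between Ly6c1 and Ly6c2 is less certain than their sum. In the deposited estimates, the counts of Ly6e were whole numbers in all 6 libraries and those of Ly6c1 and Ly6c2 in 0 of 6.

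The libraries held 14783890 to 19675447 counts. Foxo1, the deleted gene, had 85.4, 46.5 and 115 normalized counts in the Foxo1TKO libraries and 1529, 2285 and 1598 in the Foxo1Ctrl libraries, in the order of replicates 1 to 3. Between the genotypes 13691 genes were tested by the quasi-likelihood method of edgeR, with p-values adjusted after Benjamini and Hochberg, and a gene was called at an adjusted p below 0.05 together with a fold change above 1.5. In Foxo1TKO cells 11.8% of the genes tested were called lower and 11.1% higher. In 21.2% of them each Foxo1TKO library lay below each Foxo1Ctrl library.

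All 4 Ly6 genes were called lower in Foxo1TKO cells. The fall was largest for Ly6c1 (38.4-fold), followed by Ly6c2 (7.32-fold), Ly6a (2.99-fold) and Ly6e (1.82-fold). In bulk samples such as these, fewer cells that carry a transcript and less of it per cell cannot be told apart.

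Ly6c1 had 130, 118 and 36.5 normalized counts in the Foxo1TKO libraries and 4178, 3306 and 3653 in the Foxo1Ctrl libraries. The genotypes did not overlap, and replicate 3 of Foxo1TKO was the lowest. The mean was 95.0 ± 51.0 counts in Foxo1TKO cells and 3712 ± 439 in Foxo1Ctrl cells (SD, n = 3 each), a log2 fold change of −5.26 (standard error 0.45, edgeR adjusted p = 0.000237). Of the 13691 genes tested, 38 had a lower log2 fold change than Ly6c1, 17 of them among the 9235 genes whose mean reached 100 normalized counts. The unnormalized estimates behind the Foxo1TKO values were 154, 135 and 33.7 counts, so that these values rest on few reads.

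Ly6c2 had 185, 118 and 67.6 normalized counts in the Foxo1TKO libraries and 1033, 855 and 851 in the Foxo1Ctrl libraries. Again no Foxo1TKO library reached a Foxo1Ctrl library, and replicate 3 of Foxo1TKO was the lowest. The log2 fold change was −2.87 (standard error 0.35, edgeR adjusted p = 0.00115). With the counts of Ly6c1 and Ly6c2 summed before the fit, which removes the division of shared reads between the pair, the log2 fold change was −4.39 (standard error 0.39, edgeR adjusted p = 0.000282).

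Ly6a was an abundant transcript in both genotypes. It had 5881, 6193 and 4297 normalized counts in the Foxo1TKO libraries and 15299, 18609 and 15025 in the Foxo1Ctrl libraries. The lowest Foxo1Ctrl library thus lay above the highest Foxo1TKO library. The log2 fold change was −1.58 (standard error 0.19, edgeR adjusted p = 0.00110).

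Ly6e was the most abundant of the 4 and had the smallest change. It had 16023, 16884 and 14262 normalized counts in the Foxo1TKO libraries and 30327, 27834 and 27484 in the Foxo1Ctrl libraries. The libraries of one genotype lay close together and did not overlap with those of the other. The log2 fold change was −0.86 (standard error 0.14, edgeR adjusted p = 0.00453). All 4 calls were kept whichever of the 6 libraries was left out and under every other test and normalization tried.

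**Figure D1:**
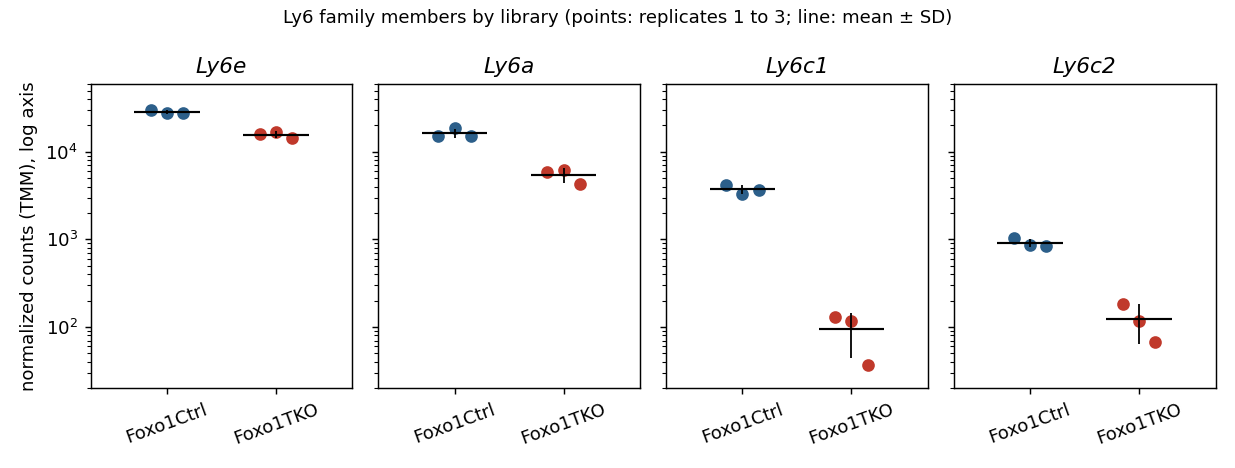
Normalized counts of Ly6e, Ly6a, Ly6c1 and Ly6c2 in each library, on a log axis, with blue points for Foxo1Ctrl and red points for Foxo1TKO libraries, a horizontal line at the mean and a vertical line of 1 SD either way (n = 3 per genotype). No red point reaches a blue one in any panel, and the gap is widest for Ly6c1, with 36.5 to 130 counts against 3306 to 4178.

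Levels of different genes were compared as TPM, the share of a gene's transcripts among all transcripts with transcript length taken into account. In Foxo1Ctrl cells the order was Ly6e (2137 ± 300.4 TPM), Ly6a (1510 ± 16.1), Ly6c1 (365 ± 72.3) and Ly6c2 (93.2 ± 17.6), and no pair of neighbours in this order overlapped between libraries (SD, n = 3). By mean TPM, Ly6e ranked 54th, Ly6a 87th, Ly6c1 455th and Ly6c2 1709th among all genes of the count files. In Foxo1TKO cells Ly6e (1217 ± 172 TPM) and Ly6a (529 ± 128) kept their places, with ranks of 106 and 325. Ly6c1 (9.82 ± 5.40 TPM) and Ly6c2 (13.2 ± 7.71) came last and overlapped each other, with ranks of 6831 and 6037.

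The sum of the 4 transcripts fell from 4106 ± 381 TPM in Foxo1Ctrl cells to 1768 ± 312 TPM in Foxo1TKO cells. Ly6c1 and Ly6c2 together made up 9.81 to 12.1% of this sum in the Foxo1Ctrl libraries and 0.709 to 1.78% in the Foxo1TKO libraries. Within the Ly6c pair the share of Ly6c1 was 79.6, 79.3 and 80.1% in the Foxo1Ctrl libraries and 39.5, 49.9 and 37.3% in the Foxo1TKO libraries. The share of Ly6c1 hardly varied among the control libraries, and none of the Foxo1TKO libraries reached them (exact two-sided permutation test, p = 0.1, the smallest that 3 against 3 libraries allow). In the Foxo1TKO libraries the shares rest on 33.7 to 154 estimated counts of Ly6c1 and 63.3 to 219 of Ly6c2. Part of these come from stretches shared between genes, so that the shares are uncertain there. The ratio of Ly6e to Ly6a ran from 1.19 to 1.60 in the Foxo1Ctrl libraries and from 2.18 to 2.67 in the Foxo1TKO libraries (exact two-sided permutation test, p = 0.1).

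**Figure D2:**
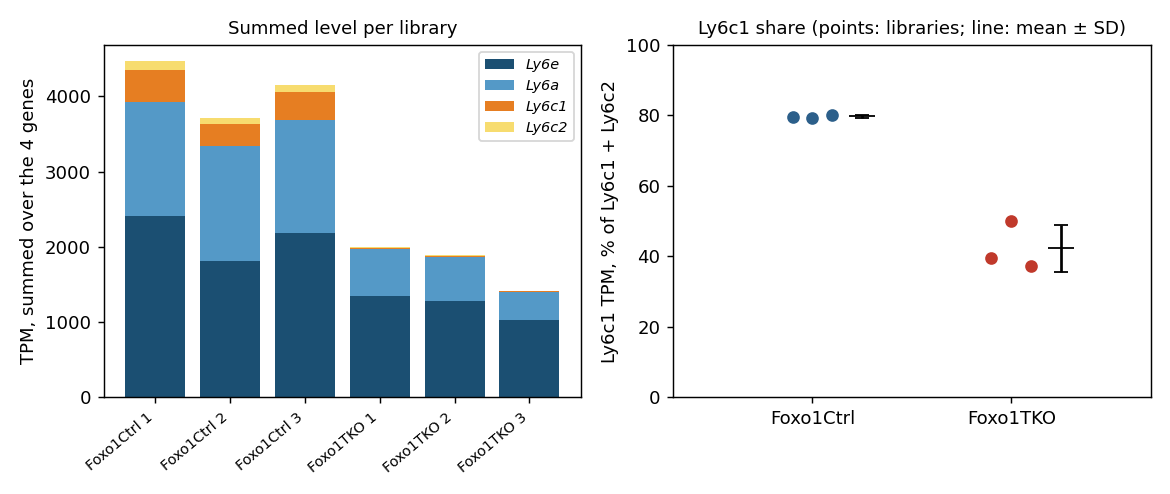
Left, TPM of the 4 genes stacked per library; right, the TPM of Ly6c1 as a percentage of that of Ly6c1 and Ly6c2 together, with points for libraries and a line with bars for the mean ± SD (n = 3 per genotype). The stacks are 3705 to 4462 TPM high in the Foxo1Ctrl and 1414 to 2003 TPM in the Foxo1TKO libraries, and the share of Ly6c1 lies at 79.3 to 80.1% and at 37.3 to 49.9%.

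The other genes of the Ly6/uPAR superfamily share the three-finger fold of the 4 proteins. Of 41 listed, 36 were found by symbol in the count files and 25 of these had at most 3 counts in every library. Only 8 were counted deeply enough to be tested, of which 3 were called lower and 3 higher in Foxo1TKO cells, with a median log2 fold change of −0.77, against 0.01 over all genes tested. Beside a background of 11.8% called lower and 11.1% higher over all genes tested, both directions thus occurred outside the 4 genes. Cd59a and Plaur reached the 10 counts asked for a test in 3 libraries only in Foxo1TKO, and Ly6i only in Foxo1Ctrl. These genes entered the test through the genotype in which they were high, which favors a call.

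The lower ones were Lypd6b, Ly6i and Ly6d. Lypd6b, which lies outside the chromosome 15 cluster, had 87.1 to 102 normalized counts in Foxo1TKO and 498 to 624 in Foxo1Ctrl libraries (log2 fold change −2.56, standard error 0.19). Ly6i, a close relative of Ly6a, was rare, with 4.29 to 10.5 against 33.9 to 60.8 counts (−2.51, standard error 0.43), and part of its sequence is shared with Ly6a. Ly6d, a marker of B-lineage cells, had 33.8 to 49.4 against 103 to 152 counts (−1.62, standard error 0.29). None of these 3 genes overlapped between the genotypes, but they were picked as called. In 21.2% of all genes tested each Foxo1TKO library likewise lay below each Foxo1Ctrl library.

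The higher ones were Cd59a, Plaur and Ly6g5b. Cd59a encodes an inhibitor of the complement attack complex and had 30.4, 32.5 and 37.6 normalized counts in the Foxo1TKO libraries, whereas the 3 Foxo1Ctrl libraries together held 1 read. The ratio of 91.1 has a 95% counting interval from 16.01 to 3631 (exact binomial, counting error only). Plaur, which encodes the urokinase receptor, had 65.8 to 111 against 10.3 to 33.4 counts (log2 fold change 1.96, standard error 0.44). Ly6g5b had 134 to 261 against 72.7 to 132 counts (1.18, standard error 0.35, edgeR adjusted p = 0.0434), and its call was lost without replicate 1 or 2 of Foxo1TKO or replicate 1 or 3 of Foxo1Ctrl (edgeR adjusted p from 0.0214 to 0.160 over the 6 fits). Lynx1, a modulator of nicotinic receptors, and Ly6k, with means of 12.3 and 13.5 counts over all libraries, did not pass the test (log2 fold changes −0.89 and −0.66, standard errors 0.62 and 0.54).

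**Figure D3:**
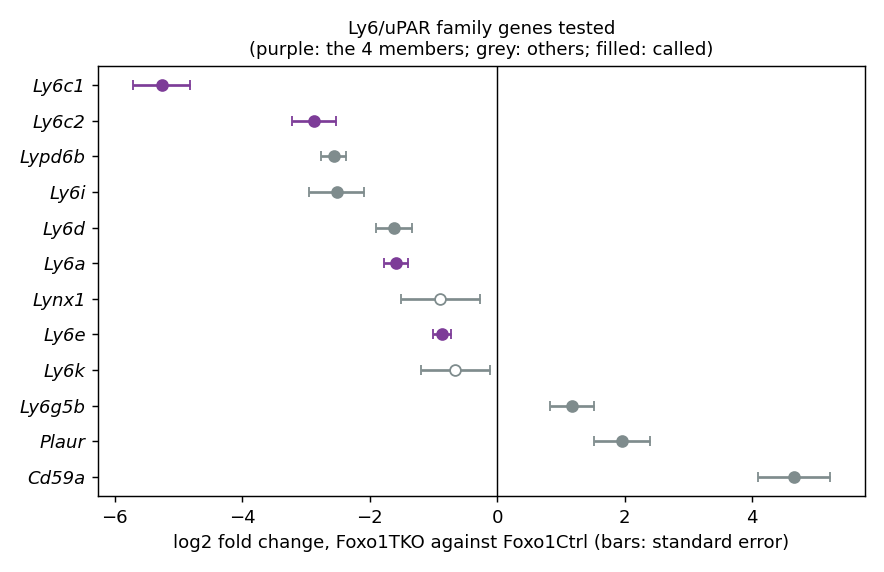
Log2 fold change of Foxo1TKO against Foxo1Ctrl for the 12 Ly6/uPAR genes tested, with bars for the standard error, purple for the 4 members, grey for the others and filled points for called genes. The members lie between −5.26 and −0.86, and the others on both sides of 0. The point of Cd59a depends on the prior count of the fit, because the Foxo1Ctrl libraries held 1 read in all.

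The Ly6 cluster of chromosome 15 from Psca to Gpihbp1 (74714839 to 75599481) holds 50 annotated genes, 35 of which had at most 3 counts in every library. Of the 10 genes tested there, 6 were called lower and 0 higher, and 9 of 10 had a negative log2 fold change. Of these 6, 4 are the members themselves, which were counted above and add nothing new about the cluster. Apart from the members only Ly6d and the rare Ly6i were called. The remaining 4, Them6, Lynx1, Ly6k and the non-coding Gm39556, did not pass the test, with log2 fold changes from −0.89 to 0.34. Ly6k overlaps a gene on the opposite strand, and the strand setting of the counting is not given in the sources used here.

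Over all genes tested 11.8% were called lower and 11.1% higher. The flanks were taken as the 5 nearest genes tested on each side of the cluster, some of them far from it. The processed pseudogenes Ndufb4c, Gm7935 and Gm15387 started at −1188 to −904 kb and Zc3h3 at 844 kb from the start of Ly6a. Of the flanking genes, 0 of 10 were called lower and 4 were called higher. These were Arc, an early gene of activated cells, with 25.4 to 64.2 normalized counts in Foxo1TKO and 1.19 to 4.57 in Foxo1Ctrl libraries (log2 fold change 3.69, standard error 0.56), the non-coding Gm46519 (2.67, standard error 0.52), Top1mt, which encodes the mitochondrial topoisomerase (2.61, standard error 0.35), and Zfp41 (1.04, standard error 0.26). Arc and Gm46519 reached 10 counts in 3 libraries only in Foxo1TKO, which favors a call. Within the cluster the size of the fall did not follow the order of the genes, since Ly6c1 fell more than Ly6a and Ly6c2 on either side of it.

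**Figure D4:**
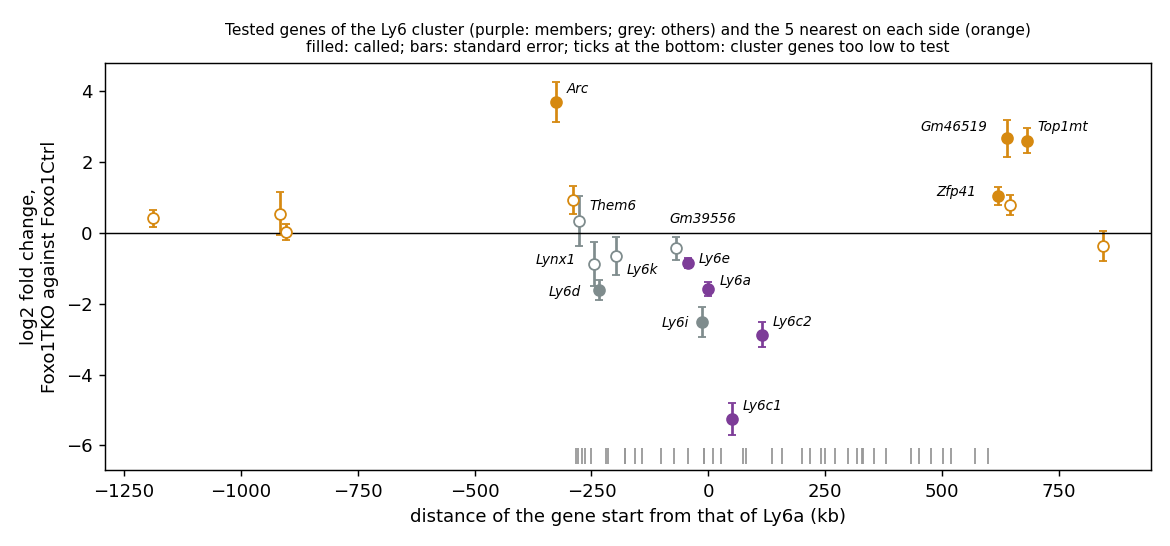
Log2 fold change with its standard error for the 10 genes tested in the Ly6 cluster (purple for members, grey for others) and the 5 nearest tested genes on each side (orange), against the distance of each gene's start from that of Ly6a in kb. Filled points are called genes and ticks at the bottom are cluster genes too low to test. The 6 called genes of the cluster, 4 of them the members, lie below 0 and the 4 called flanking genes above it.

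The promoters of Ly6c1 and Ly6c2, the pair that fell the most, are shown. Ly6a and Ly6e had no entry in the promoter reference and were not searched. RefSeq promoter sequences (GRCm38.p6) were matched for these 2 of the 4 genes, and the 250 bases before the start nearest to that of GENCODE were searched on both strands for 4 motifs. These were GAAA followed by any 2 bases and a further GAAA, the core of the interferon-stimulated response element, TTCNNNGAA, the core of the interferon-gamma-activated site, GTAAACA, the Foxo consensus, and TAAACA, a forkhead core that also lies within the Foxo consensus. Among the 250 bases before the start in all 32851 promoters of the table, 2.98% held the first, 7.02% the second, 3.17% the third and 12.03% the fourth. The sequences of chr15:75048838-75049087 for Ly6c1 and chr15:75111972-75112221 for Ly6c2, both read from the minus strand, are given 5′ to 3′ with motif matches in capitals.
Ly6c1: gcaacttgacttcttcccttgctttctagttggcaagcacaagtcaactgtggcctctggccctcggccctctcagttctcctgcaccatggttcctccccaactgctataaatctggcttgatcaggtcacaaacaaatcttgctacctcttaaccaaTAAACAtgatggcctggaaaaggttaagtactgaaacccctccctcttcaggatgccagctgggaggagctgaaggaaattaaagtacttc
Ly6c2: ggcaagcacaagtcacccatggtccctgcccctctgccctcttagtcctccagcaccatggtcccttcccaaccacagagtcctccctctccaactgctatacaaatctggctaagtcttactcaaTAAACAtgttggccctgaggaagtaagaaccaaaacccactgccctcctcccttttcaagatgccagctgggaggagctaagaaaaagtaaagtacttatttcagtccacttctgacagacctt

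Each promoter held 1 match to TAAACA, which began 91 bases before the start in Ly6c1 and 124 bases before it in Ly6c2. The bases next to the match are the same in both promoters, so that the matches do not count as independent. The other 3 motifs had 0 matches in these windows, which says only that these letters are not in them. When the windows were aligned, whose annotated starts are offset from each other, 164 of the 216 columns with a base from both were identical (75.9%), and 68 columns were gaps.

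Ly6a and Ly6e belong to the genes that interferons induce. Interferons bind their receptors at the cell surface, kinases bound to the receptors phosphorylate transcription factors, and these then switch on the stimulated genes. Of 20 further interferon-stimulated genes, all tested and 1 of them (Bst2) also on the list of GPI-anchored proteins given after these, 13 were called lower and 0 higher in Foxo1TKO cells, and the median log2 fold change was −1.34, against 0.01 over all genes tested. The shares over all genes tested were 11.8% lower and 11.1% higher. All 20 interferon-stimulated genes had a negative log2 fold change, and 12 to 14 were called lower when each library was left out.

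Ifit3, a cytoplasmic antiviral protein, had 80.3, 133 and 50.4 normalized counts in the Foxo1TKO libraries and 699, 812 and 483 in the Foxo1Ctrl libraries (log2 fold change −2.90, standard error 0.38). Gbp2, a guanylate-binding GTPase, had 2809, 3287 and 3214 against 16206, 22079 and 17574 counts (−2.58, standard error 0.18). Rtp4 (−2.19, standard error 0.25) and Gbp4 (−1.87, standard error 0.17) followed among the genes with a mean of 100 or more counts. The genotypes did not overlap for Ifit3 or Gbp2. Isg15, with 148 to 182 against 207 to 369 counts, did not pass the test (−0.79, standard error 0.25, edgeR adjusted p = 0.0569).

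The list of interferon signaling held 14 genes, namely receptors, kinases and factors with Ifng itself, Socs1 and Ptpn2. Of these 3 were called lower and 0 higher, against 11.8% and 11.1% of all genes tested. Ifngr1 and Irf9 were among the lower ones. Ifngr1, the ligand-binding chain of the interferon-gamma receptor, had 4590, 4477 and 3865 normalized counts in the Foxo1TKO libraries and 53593, 43490 and 47987 in the Foxo1Ctrl libraries (log2 fold change −3.49, standard error 0.17), without overlap. Irf9 had 2200 to 2737 against 4646 to 5225 counts (−1.01, standard error 0.15). Ifnar1, a chain of the type 1 interferon receptor, had 2331 to 4015 against 3113 to 7533 counts, overlapped between the genotypes and did not pass the test (−0.98, standard error 0.35, edgeR adjusted p = 0.0801). Ifng, which encodes interferon-gamma, had 66.5 to 160 against 39.3 to 59.5 counts, without overlap. It did not pass the test (0.95, standard error 0.40, edgeR adjusted p = 0.126) and was named after its values were seen. Without replicate 2 of Foxo1Ctrl, and also under DESeq2, 5 of the 14 genes were called lower.

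Of the 29 enzymes tested that build, attach or remodel the GPI anchor, 3 were called higher and 1 lower in Foxo1TKO cells. Neither count stood above the share over all genes tested, 11.1% higher and 11.8% lower. The median log2 fold change was 0.13. Pigp (log2 fold change 0.89), Pigu (0.68) and Dpm2 (0.65) were the higher ones, and of the list 0 were called higher without replicate 2 of Foxo1TKO and 1 without replicate 1 or 2 of Foxo1Ctrl. Pgap1, which removes a fatty acid from the anchor after its attachment, had 19.3 to 24.6 normalized counts in Foxo1TKO and 171 to 217 in Foxo1Ctrl libraries (−3.07, standard error 0.26).

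Among 12 other GPI-anchored surface proteins of lymphocytes that were tested, 5 were called lower and 2 higher, against 11.8% and 11.1% of all genes tested. Their median log2 fold change was −0.22. The lower ones were Nt5e, which encodes CD73 (log2 fold change −3.28), Cd55, an inhibitor of complement (−1.17), Izumo1r, which encodes folate receptor 4 (−1.14), Art2b, an ADP-ribosyltransferase (−1.13), and Cd52 (−0.66). The higher ones were Cd160, with 4868 to 7251 normalized counts in Foxo1TKO and 333 to 592 in Foxo1Ctrl libraries (3.70, standard error 0.27), and Cd24a, with 912 to 1144 against 53.7 to 119 (3.67, standard error 0.31). Without replicate 2 of Foxo1TKO, 3 genes of this list were called lower.

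Ly6C is read on T cells together with other molecules of activation and memory. Of 13 such genes tested, 6 were called lower and 2 higher, against 11.8% and 11.1% of all genes tested. Il7r, the interleukin-7 receptor, had 645, 784 and 882 normalized counts in the Foxo1TKO libraries and 8659, 11444 and 5837 in the Foxo1Ctrl libraries (log2 fold change −3.49, standard error 0.28). Cxcr3, a chemokine receptor (−3.17, standard error 0.26), and Il18r1, a chain of the interleukin-18 receptor (−1.72, standard error 0.23), were among the others called lower. The higher ones were Eomes, a T-box factor, with 1227 to 1341 against 204 to 344 counts (2.26, standard error 0.22), and Cx3cr1, a rare transcript with 11.4 to 22.8 against 0 to 3.88 counts. Cx3cr1 lay below the mean of 100 counts asked of named genes and was named after its values were seen. It reached 10 counts in 3 libraries only in Foxo1TKO, which favors a call. In the fits without replicate 1, 2 or 3 of Foxo1TKO or replicate 1 or 2 of Foxo1Ctrl, 1 gene of this list was called higher. Cd44 had 1267 to 1477 against 1260 to 1537 counts and did not pass the test (0.02, standard error 0.15).

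**Figure D5:**
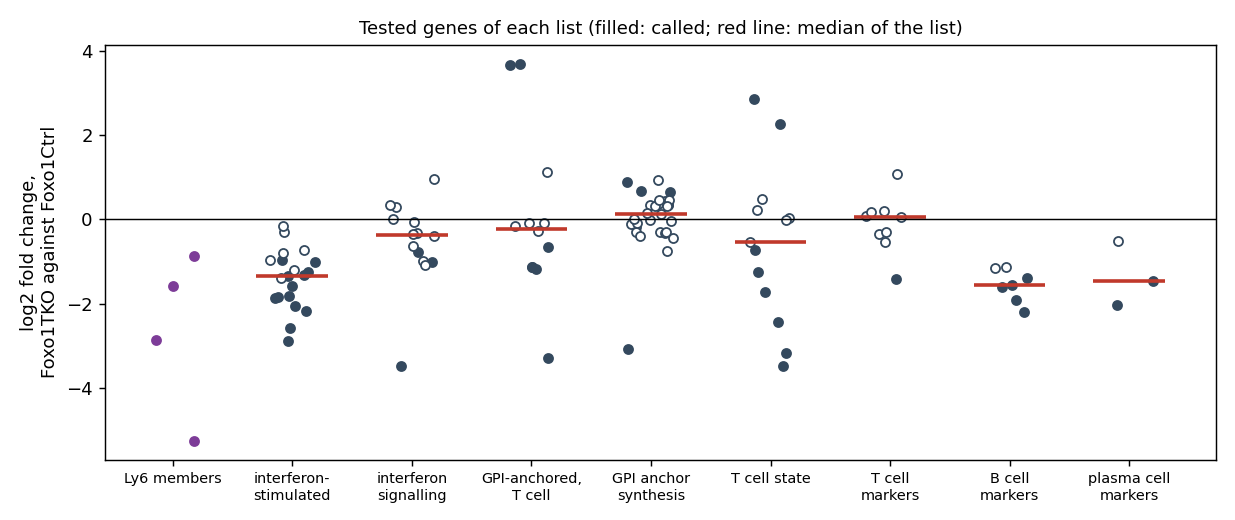
Log2 fold change of Foxo1TKO against Foxo1Ctrl for the tested genes of each list and the 4 Ly6 members, with filled points for called genes and a red line at the median of each list. The interferon-stimulated genes (median −1.34) and the B cell markers (−1.56) lie below 0, whereas the GPI anchor synthesis genes (0.13) and the T cell markers (0.06) are spread around it.

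The cultures also held splenocytes, and Ly6c1, Ly6c2, Ly6a and Ly6e are known in cells other than T cells. T cell markers were high in both genotypes, with a summed level of 131130 to 138088 normalized counts in Foxo1TKO and 149529 to 160530 in Foxo1Ctrl libraries. Of 9 tested 1 was called, Cd28 (log2 fold change −1.43). Of 8 B cell markers 7 were tested and 5 were called lower, against 11.8% of all genes tested. Among those called, Cd22 reached 10 counts in 3 libraries only in Foxo1Ctrl, which favors a call. The summed level of the 8 was 160 to 208 normalized counts in Foxo1TKO and 575 to 648 in Foxo1Ctrl libraries. Of 5 plasma cell markers 3 were tested and 2 were called lower, Jchain (−1.47) and Mzb1 (−2.04), with a summed level of 359 to 956 against 1663 to 2518 counts, most of it Jchain. The defining markers Sdc1 and Tnfrsf17 were at 0 to 7.15 and 0 to 1.19 counts. B and plasma cell markers thus moved in the direction of the Ly6 genes, and their part in the fall of the Ly6 genes was not tested.

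Some monocytes and macrophages carry much Ly6C. Of 8 markers of these cells 2 were tested. Lyz2, Csf1r, Adgre1, Cd14 and Fcgr1 had 0 to 17.2 normalized counts in every library. The summed level of the list was 136 to 167 counts in Foxo1TKO and 582 to 814 in Foxo1Ctrl libraries. Most of the sum in the Foxo1Ctrl libraries was Ccr2, so that it does not measure these cells. Of the markers tested, Ccr2, which T cells express too, was called lower, with 41.9 to 98.04 against 538 to 768 counts (log2 fold change −3.14, standard error 0.33). Cd68, a lysosomal protein of macrophages, had 60.01 to 83.7 against 34.9 to 44.6 counts and did not pass the test (0.74, standard error 0.29). Of 8 neutrophil markers 0 were tested, with a summed level of 4.29 to 61.4 against 0 to 3.58 counts. Of 6 dendritic cell markers 3 were tested and 1 was called, Ccr9 (2.34, also a receptor of T cells), with a summed level of 260.3 to 309 against 183 to 277 counts. NK cell markers summed to 16.1 to 51.6 against 34.6 to 75.6 counts with 1 tested and 0 called. Of 6 endothelial and stromal markers 2 were tested and 1 was called, Pecam1 (−0.68). Pecam1 made up nearly all of the summed level of 2527 to 2649 against 3352 to 4652 counts, and Cdh5, Kdr, Col1a2 and Pdgfra were at 0. Over all genes tested 11.8% were called lower and 11.1% higher. Cd8a was at 0 to 28.1 and Cd8b1 at 91.2 to 160.1 counts, and Cd8b1 did not pass the test.

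The genes most alike to each member were taken as the 3 with the highest Pearson correlation of log2 normalized counts over the 6 libraries, among genes with a mean of at least 100 counts. These correlations mostly express the difference between the genotypes and come from the same libraries. They were Rexo5, Ctla2a and Sec24a for Ly6a (r from 0.997 to 0.999), Peak1, Tug1 and Map3k5 for Ly6c1 (0.998 to 0.999), Mdm2, Kif5b and Cd101 for Ly6c2 (0.997 to 0.999), and Trbv20, Map3k5 and Tug1 for Ly6e (0.997 to 0.999). All of these genes had negative log2 fold changes, from −4.76 for Ctla2a to −0.34 for Kif5b, and Map3k5 and Tug1 came up for both Ly6c1 and Ly6e.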

How the data were processed

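RNA sequencing libraries of activated CD4N progeny were grouped by the genotype in their labels (3 Foxo1TKO, 3 Foxo1Ctrl). The authors aligned reads with STAR 2.7.6a to Ensembl GRCm38, kept reads mapping to up to 10 loci and deposited RSEM 1.3.1 expected counts, which are not normalized, with TPM and effective lengths per library. A further table of the authors holds DESeq2-normalized signal for each gene. Trimming and strandedness are not given in the sources used here.

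Expected counts were rounded, and a gene entered the test if 3 or more libraries held 10 or more of its counts (13691 genes). Genotypes were compared with edgeR 4.0.16 (TMM, glmQLFit and glmQLFTest, prior count 1; R 4.3.3), genotype as the only term, with Benjamini-Hochberg adjustment over all genes tested. Normalized counts are TMM-scaled counts at the mean library size. The fit was tested on simulated data. Symbols came from a reference table that matched 55141 of 55487 identifiers. Sequences were read with Python 3.11.15 and aligned with Biopython 1.88. From each list the called genes were named, up to the 4 largest changes per direction at a mean of 100 or more normalized counts, as well as every Ly6/uPAR gene tested. A few genes of the lists are counted but not reported here by name. The members, lists and alternatives were chosen with earlier results of these data known. Alternatives were DESeq2 1.42.0, limma-voom (limma 3.58.1), other normalizations and filters, effective lengths, the authors' signal and TPM on a log2(value + 1) scale (limma), a replicate block, and each library left out.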

Additional observations from a re-analysis of the deposited data

How the results depend on the processing

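The 4 Ly6 genes kept their direction and their call under all 16 alternatives run for each. When each library was left out, the log2 fold change ran from −1.67 to −1.43 for Ly6a, from −5.56 to −4.89 for Ly6c1, from −3.29 to −2.58 for Ly6c2 and from −0.91 to −0.79 for Ly6e, with adjusted p of at most 0.0284 (edgeR). Under the other alternatives it ran from −1.59 to −1.54, from −5.43 to −5.22, from −3.02 to −2.85 and from −0.87 to −0.81. The 3144 genes called over all genes tested became 1854 without replicate 2 of Foxo1TKO and 2031 without replicate 1 of Foxo1Ctrl, the lowest of the 6 such fits, and 3321 without replicate 2 of Foxo1Ctrl, the highest. Of 84 recounts of the gene lists under DESeq2 or without a library, 72 stayed within 1.5 times.

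Whether the replicate numbers pair the libraries is not given in the labels, and so few libraries cannot decide it. For PD1, TIGIT and cell cycles in such cultures the paper used paired tests. The correlation of deviations from the genotype means was 0.68, 0.40 and −0.29 for replicates 1, 2 and 3, and 3 of the 6 libraries correlated best with their own number. With the replicate number as a block, 3318 genes were called and the 4 Ly6 genes kept their calls. With 3 libraries per genotype an exact permutation test cannot go below p = 0.1, and the 34 to 154 counts of Ly6c1 in Foxo1TKO cells limit the precision of its fold change.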
